A study of Saccharomyces cerevisiae with 9 samples.

Results

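The protein genes of the large, 60S subunit of the cytosolic ribosome of Saccharomyces cerevisiae were examined for their change in mRNA level after acute NaCl stress. Members were taken by name, as every gene whose standard name is RPL followed by a number and, for duplicated genes, A or B, together with the acidic stalk genes RPP0, RPP1A, RPP1B, RPP2A and RPP2B. The rule names 81 genes in the RefSeq gene table, and 80 of them were found among the 6868 features of the arrays. All 80 had a value on all 9 arrays, as did 5645 features in all. RPL41A was not analysed here.

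The 3 strains were a wild-type strain (labelled CTD14), S2A (CTD2A) and S5A (CTD5A), each profiled on 3 arrays that compared a culture treated with 0.7 M NaCl for 30 min with the unstressed culture of the same strain in rich YPD medium. None of the strains had a chromosomal source of Rpb1, the largest subunit of RNA polymerase II, and all 3 carried RPB1 on a plasmid. The carboxyl-terminal domain (CTD) of Rpb1 is a tail of repeated short segments whose serines are phosphorylated during transcription. In S2A and S5A the first repeats carried alanine in place of the second or the fifth residue and the remaining repeats were wild-type, because cells do not survive substitution of all repeats. Both are therefore partial mutants, and an mRNA array cannot check the substitution itself. The 3 plasmids also differed in the total number of repeats, and both mutants had fewer wild-type repeats than the wild-type strain. Substitution and repeat number therefore cannot be told apart in these comparisons. The study reports no difference in the salt response between control plasmids of unlike wild-type repeat number. The values are log2 ratios of salt-treated over unstressed culture, so that negative values are a lower mRNA level after salt, relative to the rest of the array. Each ratio refers to the strain's own unstressed level, and unstressed levels were not compared between strains here. The study reports few expression differences between the strains before stress.

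The 60S subunit holds the peptidyl transferase centre, the tunnel through which the growing chain leaves, and a flexible stalk that recruits translation factors. Most of its proteins in yeast are encoded by a pair of near-identical genes, A and B, left by an ancient duplication of the genome, and both members of a pair are usually transcribed. Growing yeast devotes a large share of its polymerase II transcription to ribosomal protein genes, and their mRNAs drop transiently in many stresses.

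As facts of the whole series, arrays lacked a value for 156 to 1163 features. Over the 5645 complete features the array medians lay between -0.11 and -0.0069. The spread of the log2 ratios, as the median absolute deviation, was 0.79 to 0.93 on the wild-type arrays, 0.80 to 0.92 on the S2A arrays and 0.67 to 0.70 on the S5A arrays. The dye orientation was the same throughout, which means that a bias of the dyes drops out when strains are compared but remains in the response of a single strain and in a difference between paralogs. In RNA from whole cultures, fewer cells that express a gene and less RNA per cell cannot be told apart.

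NaCl lowered the 60S protein mRNAs in wild-type cells nearly as a block. The median over the 80 genes was -0.62, -1.23 and -1.04 on the 3 wild-type arrays, -0.53, -1.05 and -0.77 on the S2A arrays, and -0.23, -0.51 and -0.33 on the S5A arrays. The S5A medians lay above all 3 wild-type medians and all 3 S2A medians, while the S2A and wild-type medians overlapped. As means over arrays these were -0.96 ± 0.31 (SD, n = 3) in wild-type, -0.78 ± 0.26 in S2A and -0.36 ± 0.14 in S5A, which leaves 51.3%, 58.1% and 78.1% of the unstressed level. The 56 protein genes of the small, 40S subunit had corresponding means of -1.06, -0.92 and -0.52, and the 60S median was above the 40S median on each of the 9 arrays. Within every strain the replicate 1 array gave the weakest 60S median and the replicate 2 array the strongest.

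**Figure D1:**
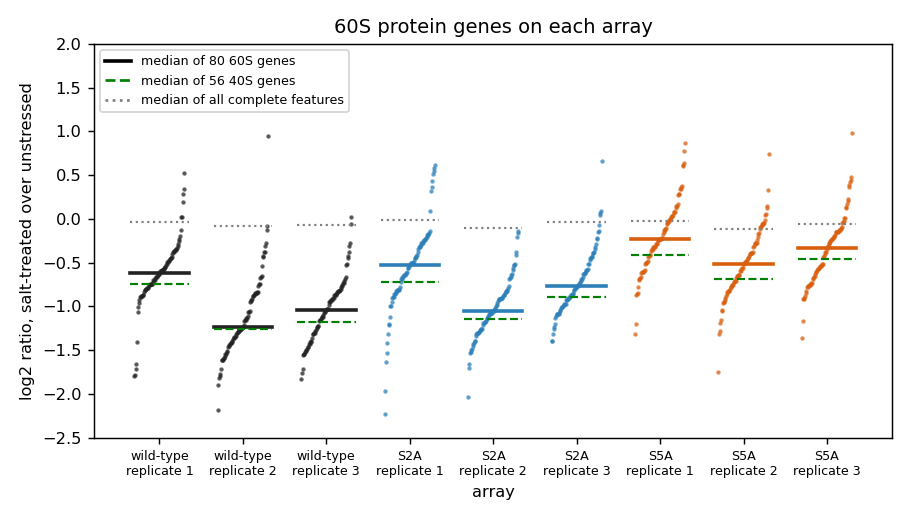
Log2 ratio (salt-treated over unstressed, vertical axis) of the 80 60S protein genes on each of the 9 arrays (horizontal axis), 1 point per gene, with lines for the median of the 60S genes, of the 56 40S genes and of all 5645 complete features. The 60S medians of the S5A arrays, -0.23 to -0.51, sit above those of the wild-type arrays, -0.62 to -1.23, while the medians of all features stay near 0.

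In wild-type, 74 of the 80 genes fell and none rose in the limma fit (adjusted p below 0.05), against 38.3% of all features tested that fell. In S2A 71 fell and none rose (37.1% of all features fell). In S5A 42 fell and 2 rose, with 34.2% of all features falling and 28.9% rising. Of the genes that fell in wild-type, 32 did not pass the test in S5A, which by itself does not show a difference between the strains. The 44 genes that changed in S5A (63.1% of all features) became 24 when S5A replicate 2 was left out. Below 0 on all 3 arrays of a strain were 74 genes in wild-type, 72 in S2A and 53 in S5A. The same count was not made over all features, and the S5A arrays had a smaller spread, so these counts only describe the 80 genes.

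The order of the genes was similar in the strains, as a description across 80 genes that share arrays and are not independent replicates. The correlation of the gene means was 0.86 between wild-type and S5A, 0.85 between wild-type and S2A and 0.91 between S2A and S5A. RPL31B was the most strongly reduced gene in all 3 strains. The order within a strain is coarse: of the 79 steps between neighbours in the wild-type order, 0 were larger than the SD of both neighbours.

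**Figure D2:**
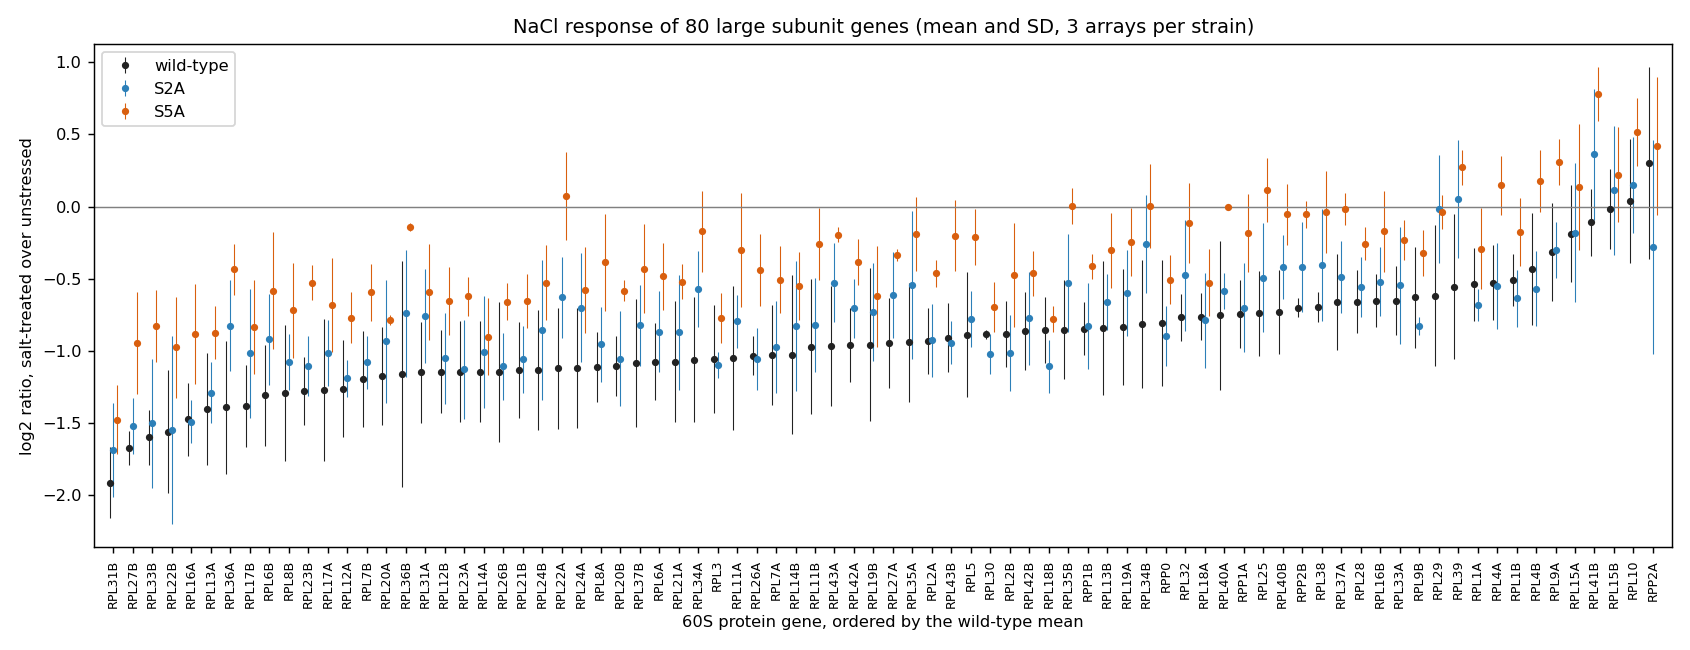
Mean log2 ratio (vertical axis) with SD as bars over 3 arrays for each of the 80 60S protein genes (horizontal axis), ordered by the wild-type mean, in wild-type, S2A and S5A. RPL31B is lowest in all 3 strains, and in the values as deposited the S5A mean is above the wild-type mean for all 80 genes.

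The 5 genes with the lowest wild-type means were RPL31B, RPL27B, RPL33B, RPL22B and RPL16A. RPL31B (YLR406C), for a protein at the rim of the exit tunnel, had log2 ratios of -1.72, -2.19 and -1.83 in wild-type, -1.63, -2.04 and -1.39 in S2A, and -1.31, -1.75 and -1.36 in S5A. All 9 values were far below 0, and the lowest S5A value was below the highest wild-type value. Overlap here and below is over all arrays of a strain, without regard to replicate number. Each S5A value of RPL31B was above the wild-type value of the same replicate number. Its mean was -1.91 ± 0.24 in wild-type (adjusted p = 1.08e-06). The S5A minus wild-type difference of 0.44 did not pass the test (adjusted p = 0.174, and 0.0382 with the replicate number as a block, which also misses). RPL27B (YDR471W) had -1.66, -1.79 and -1.56 in wild-type, -1.53, -1.71 and -1.32 in S2A and -0.61, -1.31 and -0.91 in S5A. Here the S5A arrays were above all wild-type arrays, with a difference of 0.73 (adjusted p = 0.0315, and 0.0144 with the replicate number as a block, which passes). RPL33B (YOR234C) had -1.78, -1.61 and -1.40 in wild-type, -1.97, -1.45 and -1.08 in S2A and -0.86, -1.05 and -0.56 in S5A, also without overlap between S5A and wild-type (difference 0.77, adjusted p = 0.0462, and 0.0149 with the block). RPL22B (YFL034C-A) had -1.79, -1.81 and -1.07 in wild-type and -1.20, -1.15 and -0.57 in S5A, which overlapped. RPL16A (YIL133C) had -1.40, -1.26 and -1.76 in wild-type and -0.69, -1.28 and -0.68 in S5A, which overlapped as well.

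At the other end, 6 genes did not pass the test in wild-type. RPP2A (YOL039W), for an acidic stalk protein, had 0.34, 0.95 and -0.38 in wild-type, 0.55, -0.52 and -0.87 in S2A, and 0.87, -0.09 and 0.47 in S5A. Its values lay on both sides of 0 within every strain, with an SD of 0.67 in wild-type. RPL10 (YLR075W), for a protein that joins the subunit at the last cytoplasmic steps of its assembly, had 0.53, -0.13 and -0.28 in wild-type, 0.51, -0.13 and 0.07 in S2A and 0.78, 0.33 and 0.44 in S5A. It rose in S5A (0.52 ± 0.23, adjusted p = 0.0218), but its difference from wild-type, 0.48, did not pass the test (adjusted p = 0.203), and the rise itself did not pass without S5A replicate 1 (adjusted p = 0.141) or replicate 3 (0.0589). RPL41B (YDL133C-A), for a very short protein at the subunit interface, had 0.03, -0.38 and 0.02 in wild-type, 0.59, -0.16 and 0.66 in S2A and 0.62, 0.74 and 0.98 in S5A. It also rose in S5A (0.78 ± 0.19, adjusted p = 0.00165). All 3 of its S5A values were above its wild-type values, with a difference of 0.89 and an adjusted p of 0.0287 (0.0131 with the block). Both genes of the RPL15 pair, for a protein of the subunit core, were close to 0 in wild-type, with means of -0.19 ± 0.34 for RPL15A (YLR029C) and -0.016 ± 0.28 for RPL15B (YMR121C). RPL9A (YGL147C) was the sixth, at -0.32 ± 0.34 (adjusted p = 0.0563). With the block RPL9A passed, both for its fall in wild-type (0.0123) and for its S5A minus wild-type difference of 0.62 (0.0144).

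The question for the CTD mutants was whether they alter this repression. For all 80 genes the S5A mean was above the wild-type mean, against 51.1% of all features, and for 77 genes after quantile normalization and 79 after scaling of the arrays to 1 spread. The 3 S5A arrays lay above all 3 wild-type arrays for 42 genes (19.1% of all features). The median difference over the 80 genes was 0.58, close to the 0.56 of the 40S genes, against 0.0094 over all features. Among the 74 genes that fell in wild-type, the S5A change was a median of 0.45 of the wild-type change, and the S2A change 0.84 of it. Over all 2160 features that fell in wild-type the corresponding medians were 0.694 and 0.949. Both sets were chosen by their fall in wild-type, which is also the divisor, and this choice alone favours values below 1. Whether a smaller change in S5A extends beyond the 80 genes was therefore not tested by these medians.

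Only RPL22A and RPL23B passed the strain test between S5A and wild-type at an adjusted p of 0.025, both with a higher log2 ratio in S5A. That is 2 of 80 genes, against 7.95% of all features (4.13% higher and 3.83% lower in S5A). At an unadjusted p below 0.05 there were 55 of 80 (31.6% of all features). With the replicate number as a block, 34 of 80 passed (13.5% of all features), and all 34 were higher in S5A (8.02% of all features). The count depended on single arrays. It was 17 when wild-type replicate 1 was left out and 0 when replicate 2 or 3 of wild-type, or replicate 1 or 3 of S5A, was left out, and leaving out the S2A arrays 1, 2 and 3 in turn gave 5, 6 and 1. After each array was scaled to 1 spread, the median difference was 0.41 and 2 genes passed the test, RPL22A and RPL41B.

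RPL22A (YLR061W) encodes a protein on the outer face of the subunit that yeast can live without. Its log2 ratios were -0.70, -1.54 and -1.12 in wild-type, -0.56, -0.94 and -0.40 in S2A, and 0.29, -0.27 and 0.20 in S5A. All S5A values were above all wild-type and S2A values, and the S5A mean of 0.072 ± 0.30 did not differ from 0 in the test (adjusted p = 0.722), while the gene fell in wild-type by 1.12. The difference was 1.19 (standard error 0.24, adjusted p = 0.0125). With the block it had an adjusted p of 0.00519, and when replicate 2 or 3 of wild-type, or replicate 1 or 3 of S5A, was left out the values were 0.0354, 0.0449, 0.0588 and 0.0425, above the level used.

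RPL23B (YER117W) encodes a protein of the face that meets the small subunit. It had -1.0, -1.40 and -1.43 in wild-type, -0.90, -1.32 and -1.09 in S2A and -0.41, -0.65 and -0.52 in S5A. The S5A values again lay above all others, but here they stayed below 0, and the gene still fell in S5A (adjusted p = 0.00284). The difference from wild-type was 0.75 (standard error 0.17, adjusted p = 0.0180). It missed the level under quantile normalization (adjusted p = 0.0364), under scaling to 1 spread (0.0544), and when certain arrays were left out, namely replicate 2 or 3 of wild-type (0.0511 and 0.0664), replicate 3 of S2A (0.0277) or any 1 of the S5A arrays (0.0354 to 0.0768).

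The next genes by adjusted p were RPL35B, RPL43B and RPL36A, at 0.0270, 0.0275 and 0.0277. RPL35B (YDL136W), for a protein at the tunnel exit, had -0.56, -1.23 and -0.76 in wild-type, -0.25, -0.91 and -0.43 in S2A and 0.15, -0.09 and -0.03 in S5A, a difference of 0.86. RPL43B (YJR094W-A) had -0.63, -1.06 and -1.03 in wild-type, -0.78, -1.07 and -0.97 in S2A and -0.00105, -0.47 and -0.13 in S5A, a difference of 0.71. RPL36A (YMR194W) had -0.88, -1.78 and -1.51 in wild-type, -0.66, -1.19 and -0.62 in S2A and -0.33, -0.64 and -0.34 in S5A, a difference of 0.95. For each of the 3 genes the S5A arrays were above all wild-type arrays, and each passed with the replicate block (adjusted p = 0.00787, 0.00904 and 0.00904). The study plots RPL37B (YDR500C) as an example of this gene class, for polymerase II occupancy at an earlier time and not for mRNA. Its log2 ratios here were -0.59, -1.44 and -1.22 in wild-type, -0.50, -1.03 and -0.93 in S2A and -0.11, -0.45 and -0.73 in S5A. Its S5A and wild-type arrays overlapped, and its difference of 0.65 did not pass the test (adjusted p = 0.101, and 0.0169 with the block). The smallest difference was that of RPL18B, 0.076, with wild-type at -0.60, -0.94 and -1.03 and S5A at -0.87, -0.77 and -0.69.

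Between S2A and wild-type 0 of the 80 genes passed the test (0% of all features; lowest adjusted p 0.569 in limma). At an unadjusted p below 0.05 there were 3, RPL29, RPL36A and RPL39, all higher in S2A, against 8.49% of all features, and the count at the level used was also 0 with the block and with Storey's q-value. The S2A mean was above the wild-type mean for 65 of 80 genes as deposited (51.1% of all features) and for 57 and 59 after quantile normalization and scaling, but for none were all S2A arrays above all wild-type arrays (6.24% of all features). RPL39 (YJL189W), whose small protein lines the tunnel wall, had -0.13, -1.11 and -0.42 in wild-type, 0.44, -0.38 and 0.10 in S2A and 0.29, 0.14 and 0.38 in S5A. Its S2A difference of 0.61 was the largest of the 80 and did not pass the test (adjusted p = 0.569), while its S5A minus wild-type difference of 0.82 passed only with the block (adjusted p = 0.0628, and 0.0148 with it).

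Between S5A and S2A 0 of the 80 genes passed the test in limma (3.31% of all features passed, 1.51% as higher in S5A), and 29 had an unadjusted p below 0.05 (27.3% of all features). The S5A mean was higher for 79 of 80 genes (50.5% of all features), RPL29 being the exception at -0.022, and for 75 after quantile normalization or scaling. All S5A arrays were above all S2A arrays for 37 genes (18.7% of all features). RPL43B was closest to the level used, with a difference of 0.74 (adjusted p = 0.0337, and 0.0153 with the replicate block, which passes). With the block 5 of the 80 genes passed (5.58% of all features), all higher in S5A.

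For the counts by role that follow, 38.3% of all features fell in wild-type, 37.1% in S2A and 34.2% in S5A, where 28.9% rose. By role, the stalk is taken first. It is an anchor protein, P0, that carries pairs of the acidic proteins P1 and P2 and recruits elongation factors, and the RPL12 protein sits at its base. In wild-type 6 of its 7 genes fell, RPP2A being the exception, and 4 fell in S5A. RPP0 (YLR340W) had -0.35, -0.84 and -1.22 in wild-type and -0.61, -0.60 and -0.31 in S5A, which overlapped. RPP1A (YDL081C) had -0.47, -0.84 and -0.91 against -0.36, -0.31 and 0.12, and RPP1B (YDL130W) had -0.74, -0.74 and -1.06 against -0.48, -0.44 and -0.32. In both P1 genes the strains did not overlap, with differences of 0.56 and 0.43 that missed the level used (adjusted p = 0.0914 and 0.117). RPP2B (YDR382W) had the tightest wild-type values of the stalk, -0.67, -0.65 and -0.78, and S5A values of 0.04, -0.05 and -0.15, a difference of 0.65 (adjusted p = 0.0294, and 0.0230 with the block). RPL12A (YEL054C) and RPL12B (YDR418W) stayed low in S5A, at -0.77 ± 0.18 and -0.66 ± 0.24 against -1.26 ± 0.34 and -1.14 ± 0.29 in wild-type, and both fell in both strains. The RPL12B difference of 0.49 passed with the block only (adjusted p = 0.142, and 0.0201 with it).

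The 5S particle joins RPL5 and RPL11 to the 5S ribosomal RNA before it docks on the assembling subunit. All 3 genes fell in wild-type and in S2A and 0 of 3 passed the test in S5A, where with the block RPL11A and RPL11B fell (adjusted p = 0.0410 and 0.0284). RPL5 (YPL131W) had -0.45, -0.89 and -1.32 in wild-type and -0.01, -0.40 and -0.23 in S5A. RPL11A (YPR102C) had -0.48, -1.39 and -1.28 against 0.08, -0.71 and -0.26, and RPL11B (YGR085C) had -0.50, -1.43 and -0.99 against -0.02, -0.52 and -0.25. Only RPL5 was without overlap between the strains, and the 3 differences, 0.67, 0.75 and 0.71, had adjusted p-values of 0.0647, 0.0834 and 0.0831. With the block all 3 differences passed (0.0210, 0.0157 and 0.0098). The list medians were -0.97 in wild-type and -0.26 in S5A, against -0.95 and -0.40 over all 80 genes.

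Of the 14 genes for proteins at the exit tunnel, 14 fell in wild-type, 13 in S2A and 7 in S5A (8 with the block). RPL25 (YOL127W), for the protein to which the signal recognition particle docks, had -0.49, -1.06 and -0.66 in wild-type and 0.04, -0.06 and 0.37 in S5A, without overlap (difference 0.86, adjusted p = 0.0308, and 0.0103 with the block). RPL4A and RPL4B, whose protein reaches into the tunnel, had wild-type means of -0.53 and -0.43 and S5A means of 0.15 and 0.18, and the RPL4A difference of 0.67 passed with the block (adjusted p = 0.0448, and 0.0176 with it). By contrast, RPL17A and RPL17B, for a protein at the exit, fell in S5A as well, to -0.68 and -0.84. Near the peptidyl transferase centre, RPL3, RPL2A and RPL2B fell in all 3 strains, RPL3 (YOR063W) by 1.06 in wild-type and by 0.77 in S5A, while RPL10 behaved as described above.

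Both genes for the mobile L1 stalk, RPL1A and RPL1B, fell only modestly in wild-type, at -0.54 ± 0.25 and -0.51 ± 0.18. In S5A they were at -0.29 ± 0.28 and -0.18 ± 0.24 and did not pass the test. RPL40A (YIL148W) and RPL40B (YKR094C) encode ubiquitin fused to a ribosomal protein. RPL40A had -0.25, -1.28 and -0.74 in wild-type and 0.01, -0.01 and -0.02 in S5A, and RPL40B had -0.40, -0.93 and -0.86 against 0.15, -0.27 and -0.04. Neither overlapped between the strains, and the differences were 0.75 and 0.67 (adjusted p = 0.0487 and 0.0405), of which that of RPL40B passed with the block (0.00904). Of the 6 measured genes on the list used here for proteins that bridge to the small subunit, which leaves out RPL23B, 5 fell in wild-type. In S5A 3 of these fell and RPL41B rose. RPL30 (YGL030W) had the smallest SD among them in wild-type, with -0.87, -0.86 and -0.92, and -0.85, -0.50 and -0.73 in S5A, a difference of 0.19 that did not pass the test (adjusted p = 0.370). The 42 remaining genes had a median of -1.07 in wild-type and -0.45 in S5A, and 39 of them fell in wild-type and 25 in S5A.

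Genes with and without a paralog were shifted by similar amounts. The median S5A minus wild-type difference was 0.57 over the 69 genes with an A or B name and 0.58 over the 11 without. The 34 genes called with the replicate block included both paralogs of 6 pairs and 1 paralog of 16 pairs. The probe sequences were not used here, so signal shared between near-identical A and B copies cannot be told apart from equal responses.

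A and B paralogs were then compared directly, as the difference of their log2 ratios within each array, which removes the centring of the array. Of 34 pairs, 13 responded unequally over the 3 strains (adjusted p below 0.05), against 48.3% of the 60 A and B pairs of any kind on the arrays and 15 of 24 pairs of 40S genes. The 60 pairs are these 34, the 24 of 40S genes and 2 others, so shares of the 60 are not an independent background. The B gene was lower in 9 of the 13 and the A gene in 4. The median absolute difference was 0.14, with 25 pairs under 0.25 and 7 over 0.5. Within a pair, the correlation over the 9 arrays had a median of 0.89, as a description of values that share arrays and strains.

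The largest differences were in RPL31, RPL16, RPL33, RPL22, RPL27 and RPL13. For RPL31 the A minus B difference was 0.91, 0.68 and 0.71 in wild-type, 1.22, 0.98 and 0.58 in S2A and 1.08, 1.09 and 0.48 in S5A. The B gene was lower on all 9 arrays, by a mean of 0.86 (standard error 0.085, adjusted p = 3.27e-06), or 1.81-fold. RPL16, for a protein of the solvent face, ran the other way, with -0.85, -0.72 and -0.89 in wild-type, -1.17, -0.998 and -0.73 in S2A and -0.46, -0.86 and -0.81 in S5A. Its A gene was lower on all 9 arrays (mean -0.83, standard error 0.069, adjusted p = 6.04e-07).

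For RPL33 the difference was 1.40, 0.77 and 0.67 in wild-type, 1.43, 0.49 and 0.94 in S2A and 0.73, 0.66 and 0.38 in S5A, and for RPL27 it was 1.01, 0.52 and 0.65, then 1.21, 0.79 and 0.73, then 0.30, 0.999 and 0.53. The B gene of both pairs was lower on all 9 arrays, with means of 0.83 and 0.75 (adjusted p = 1.18e-05 and 7.96e-06). RPL13 was the most even of the 6, with the A gene lower by 0.37 to 0.68 on every array (mean -0.59, standard error 0.060, adjusted p = 3.45e-06). RPL22 was the least even, with 1.09, 0.27 and -0.05 in wild-type, 1.67, 0.56 and 0.53 in S2A and 1.49, 0.88 and 0.78 in S5A. Its mean was 0.80 (standard error 0.14, adjusted p = 0.000268), and the B gene was lower on 8 of 9 arrays.

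The other unequal pairs were RPP2 (0.54), RPL9 (0.49), RPL37 (0.39), RPL34 (-0.24), RPL19 (0.21), RPL8 (0.21) and RPL15 (-0.18), given as mean A minus B. The sign was the same on all 9 arrays for 8 of the 34 pairs (28.3% of the 60 pairs). RPP2 was among the most scattered, from -0.55 to 1.60. RPL15 lost its call when replicate 3 of wild-type, replicate 2 of S2A, or replicate 2 or 3 of S5A was left out, and RPL8 when replicate 3 of S5A was. The smallest differences were those of RPL23, RPL42 and RPL2, at 0.0047 (standard error 0.066), 0.016 (0.062) and 0.017 (0.074).

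**Figure D3:**
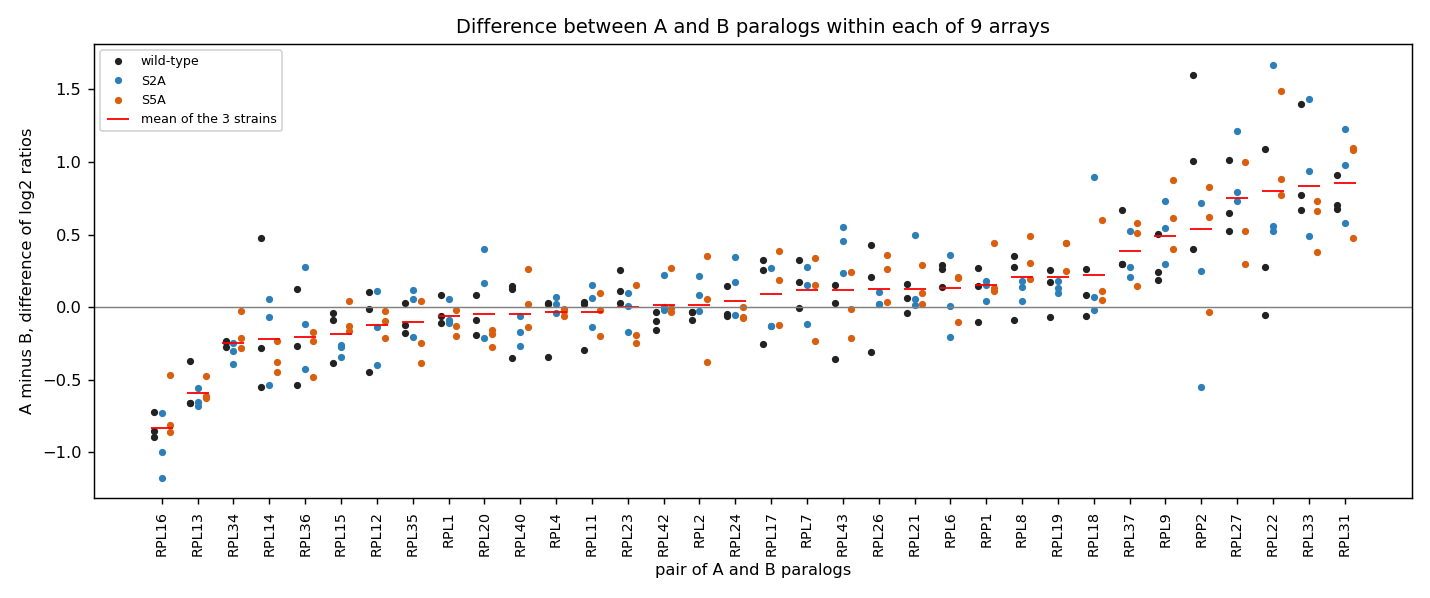
A minus B difference of log2 ratios (vertical axis) within each of the 9 arrays for the 34 pairs of 60S paralogs (horizontal axis), coloured by strain, with a line at the mean of the 3 strains. RPL16 and RPL13 lie below 0 and RPL31, RPL33 and RPL27 above 0 on all 9 arrays, while most pairs scatter around 0.

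A change of the A minus B difference between S5A and wild-type passed the test in 0 of the 34 pairs (0% of the 60 pairs; lowest adjusted p 0.814 in limma), and 0 of 34 had an unadjusted p below 0.05. Between S2A and wild-type it was also 0 of 34 (lowest adjusted p 0.785). For RPL22, where only the A gene passed the test between strains, the A minus B difference was 0.44 ± 0.59 in wild-type and 1.05 ± 0.38 in S5A, a change of 0.61 with a standard error of 0.34 (adjusted p = 0.814). For RPL23, where only the B gene passed, it was 0.13 ± 0.12 and -0.096 ± 0.22, a change of -0.23 with a standard error of 0.16 (adjusted p = 0.893). That only 1 gene of either pair passed the strain test is therefore not a measured difference between the paralogs.

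**Figure D4:**
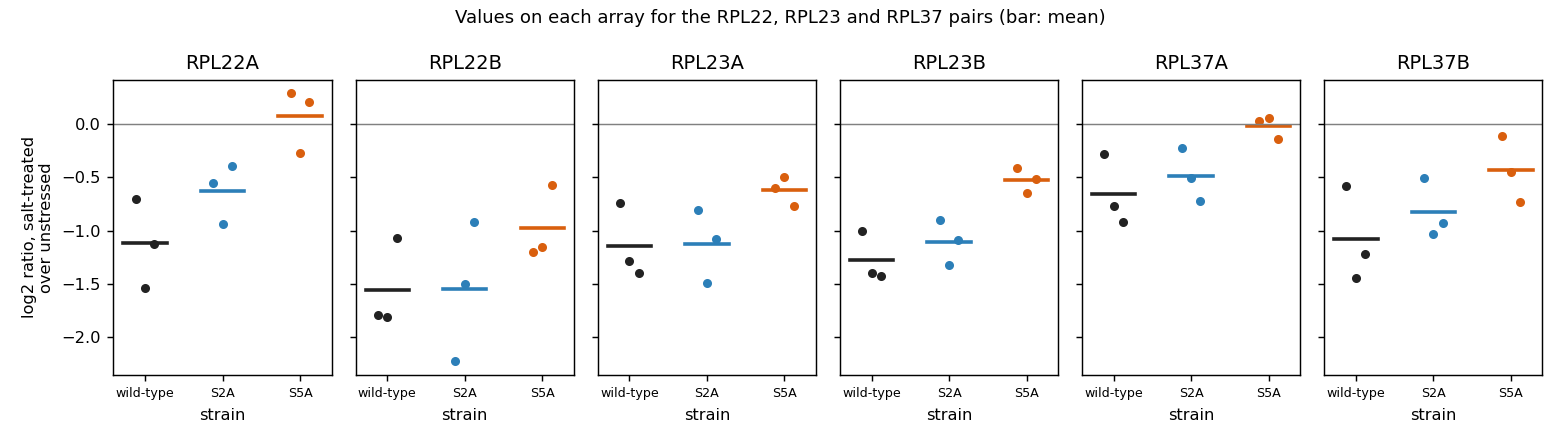
Log2 ratio (vertical axis) on each array for RPL22A, RPL22B, RPL23A, RPL23B, RPL37A and RPL37B in wild-type, S2A and S5A (horizontal axis), with bars at the mean of 3 arrays. The RPL22A values in S5A, -0.27 to 0.29, and the RPL23B values in S5A, -0.65 to -0.41, do not overlap those in wild-type, whereas RPL37B overlaps.

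By position, RPL13A is the chromosomal neighbour of RPP1A, and RPL24A that of RPL30. The neighbours did not have equal wild-type means, -1.40 against -0.74 and -1.12 against -0.89. Across the 80 genes the log2 span of the gene in the RefSeq annotation had a correlation of -0.36 with the wild-type mean and -0.44 with the S5A mean, as a description, since paralogs have similar spans and the probes per gene rise with the span.

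Genes that act on 60S proteins or on their transcription were set beside the members from lists chosen by function. All 4 dedicated chaperones of 60S proteins with a value on every array fell in wild-type (SYO1, and CRF1 among the regulators, were not tested). RRB1, the chaperone of the RPL3 protein, had -2.08, -2.46 and -2.74 in wild-type and -0.999, -1.56 and -1.86 in S5A, lower than any 60S gene in wild-type mean. Its S5A minus wild-type difference of 0.96 missed the level used in limma (adjusted p = 0.0328) and passed with the block (0.0059). SQT1 (for the RPL10 protein), ACL4 (for RPL4) and BCP1 (for RPL23) had wild-type means of -1.36, -1.32 and -1.09 and S5A means of -0.72, -0.36 and -0.60. In S5A 3 of the 4 chaperones fell, and ACL4 did not pass (adjusted p = 0.0904). SQT1 passed the limma test between S5A and S2A (difference 0.82, adjusted p = 0.0234), as did 3.31% of all features. Of 7 enzymes that methylate 60S proteins, 4 fell and 1, RKM5, rose (0.58 ± 0.13) in wild-type, and in S2A 6 fell and 1 rose. In S5A 3 fell and 0 rose. Over all features 38.3% fell and 32.3% rose in wild-type, 37.1% and 31.6% in S2A, and 34.2% and 28.9% in S5A. The counts of these short lists were not tested against those shares.

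Of the regulators of ribosomal protein transcription, 3 of 5 fell and SFP1 rose in wild-type (38.3% and 32.3% of all features). IFH1, the coactivator that binds at ribosomal protein promoters in growing cells, had -1.45, -1.92 and -1.31 in wild-type, -1.06, -0.84 and -1.12 in S2A and -0.46, -0.87 and -0.79 in S5A. It was the only gene of the 5 to pass the strain test, with a shift of 0.85 in S5A (adjusted p = 0.0177). Its partner FHL1 had means of -0.67 ± 0.41 and -0.14 ± 0.13 (difference 0.52, adjusted p = 0.0952). RAP1, which binds most of these promoters, had -0.42 ± 0.14 and -0.43 ± 0.14, and SFP1, an activator of the class, had 0.54 ± 0.20 and 0.74 ± 0.10. These are changes in the regulators' own mRNA.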

How the data were processed

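RNA from wild-type, S2A and S5A cultures (3 arrays each) had been hybridized to whole-genome tiled 2-colour arrays. The authors deposited 1 log2 ratio per feature and array, salt-treated over unstressed, normalized by procedures that their methods cite, and each array as deposited had a median near 0, so a change common to all mRNAs cannot be seen. Precision is limited by the number of arrays, and probe intensities were not used here. The direction of the ratio follows the dyes in the labels and was checked against the study's own wild-type values.

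The 5645 features measured on every array were fitted with limma 3.58.1 in R 4.3.3 (lmFit, contrasts, eBayes), 1 mean per strain, with Benjamini-Hochberg adjustment over all of them. A response was called below 0.05 and a strain difference at or below 0.025, the level of the methods for triplicated mutants. The A minus B differences were fitted in the same way over the 60 pairs of symbols that differ only in a final A or B, and called below 0.05 (strain differences at or below 0.025). Symbols came from the RefSeq table of assembly R64, which matched 5984 features. On simulated data with 200 of 5645 features shifted by 1 in S5A against wild-type, 78.6% were recovered and 2.13% of the calls were false over 20 runs. The median S5A minus wild-type difference of the 60S genes, 0.58, was smaller than this shift, so the rate does not apply to most of them.

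Arrays of different strains share replicate numbers in the labels, and the study's legend calls the strains paired. Over all features, the deviations of same-numbered arrays from their strain means correlated by 0.231, 0.177 and 0.166 between wild-type and S5A. Between wild-type and S2A these were 0.149, 0.388 and 0.292. Over the 60S genes alone the values were mixed, at 0.228, -0.247 and 0.106 between wild-type and S5A, and 0.359, 0.391 and 0.537 between wild-type and S2A. A correlation across the 60S genes leaves out a shift common to all of them on an array. The 60S medians had the same order by replicate number in every strain. Values with the replicate number as a block are therefore given beside the comparisons of the described genes with wild-type whose call they change. Nothing in the labels says that replicates are separate cultures, so the p-values measure the spread between these arrays, which may be technical.

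Named genes are the 5 lowest and the 5 highest by wild-type mean, genes called between strains and the next 3, the 6 largest and 3 smallest pair differences, RPL37B, and the genes of the stalk and the 5S particle. Other members were named after their values were seen, to describe their role group. The members, lists and tests were chosen with earlier results of these data known. As alternatives, the fits were repeated after quantile normalization, median centring or scaling to 1 spread (median absolute deviation), on features with 2 or more values in each strain (6254 features), with the replicate block, with Storey's q-value (lambda 0.5), on only the arrays or only the ribosomal pairs compared, and with each array left out.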

Additional observations from a re-analysis of the deposited data

Results flagged for a closer look

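RPL22A and RPL23B stood out because their NaCl response differed between S5A and wild-type in the test of the difference itself, by 1.19 and 0.75 on the log2 scale (adjusted p = 0.0125 and 0.0180, limma). All 3 S5A arrays were above all 3 wild-type arrays for both genes. Their paralogs RPL22B and RPL23A differed by 0.58 and 0.52 without passing the test (adjusted p = 0.248 and 0.130), and a change of the difference within either pair, 0.61 for RPL22 and -0.23 for RPL23, did not pass the test (adjusted p = 0.814 and 0.893).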

How the results depend on the processing

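The counts of responding genes in wild-type (72 to 75) and S2A (57 to 74), the median response of each strain and the count of unequal pairs (11 to 16) kept within 1.5 times or 1 SD of their values under all alternatives run, and the 13 unequal pairs kept their sign in each of them. The count of genes responding in S5A, 44, was 24 to 48 with 1 array left out, lowest without S5A replicate 2. The count differing between S5A and wild-type, 2, became 9 with median centring, 1 over features with 2 or more values in each strain, 34 with the replicate block, 16 with Storey's q-value, 3 with only the arrays of the strains compared, and 0 to 17 with 1 array left out. It stayed 2 with quantile normalization and with scaling, where RPL22A was shared and RPL41B passed in place of RPL23B. The count between S5A and S2A, 0, became 1 with median centring, 1 with Storey's q-value and 5 with the replicate block. The same-numbered arrays of those 2 strains correlated by 0.129, 0.121 and 0.0616 over all features. The count between S2A and wild-type and that of changed pair differences were 0 throughout. No result reversed. RPL23B passed with the replicate block at 0.00802 and missed the level at 0.0256 over features with 2 or more values in each strain and at 0.0278 with only the arrays compared. The cause of these changes was not tested. Of the strain differences from wild-type given for single genes, the block changed no call other than those where its value is printed. Signal over background was not used here.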
